A study of Mus musculus with 4 samples.

Results

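The cyclins that pace the cell division cycle were examined in mouse embryonic fibroblasts (MEFs). All array spots that are not controls and whose gene name was Ccna2, Ccnb1, Ccnb2, Ccnd1, Ccnd2, Ccnd3, Ccne1, Ccne2 or Ccnf were taken. These 9 genes were covered by 13 probes, out of 39429 probes for 31704 genes. The study measured RNA from p53+/+ (wild-type: WT) and p53-/- MEFs, each untreated or treated with doxorubicin, a drug that traps topoisomerase II on DNA and breaks it. Its purpose was to find p53-regulated genes that act on myosin. The p53-/- MEFs lack both copies of Trp53, the gene of p53, and the labels give no other allele or agent for any group. The drug's dose and time on the arrays, and the number of embryos behind each culture, are not given in the sources used here. Each of the 4 conditions had 1 array, so no difference below has a replicate check. Values are descriptions of these arrays without p-values, and neither the culture nor the place on the slide can be told apart from the condition.

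Most cyclins are regulatory subunits of cyclin-dependent kinases (CDKs), and those of the E, A and B types are made and destroyed once per cycle. D-type cyclins answer to growth factors and, with Cdk4 or Cdk6, phosphorylate the retinoblastoma protein in G1. E-type cyclins drive entry into S phase with Cdk2, cyclin A2 acts in S phase and G2 with Cdk2 and Cdk1, and B-type cyclins start mitosis with Cdk1. In damaged fibroblasts, p53 is known to induce the CDK inhibitor p21, after which the pocket protein complexes that repress cell cycle genes gather on their promoters.

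The targeted gene was looked at first. Trp53 gave a scaled signal, which is the processed signal divided by the 75th percentile of its array, of 0.592 in untreated WT, 1.89 in doxorubicin-treated WT, 0.235 in untreated p53-/- and 0.224 in doxorubicin-treated p53-/- MEFs. It was lower in p53-/- than in WT MEFs by 2.52-fold without the drug and by 8.43-fold with it, and was still well above background there. Whether the probe lies in the deleted stretch is not given in the sources used here. The share of probes well above background was 56.9% to 62.9% per array, and no spot was saturated. All 10 fibroblast markers were well above background on every array, with summed scaled signals of 563 to 837. Of these markers, Pdgfra, Pdgfrb, Dcn and Lum were at least 2-fold lower with doxorubicin in WT MEFs, and Pdgfrb and Lum in p53-/- MEFs. The leukocyte markers summed to 14.7 to 20.04, the epithelial markers to 5.37 to 17.9 and the endothelial markers to 2.38 to 4.22, and their parts in the cyclin values were not tested. Ptprc, Epcam and Cdh5, which define leukocytes, epithelium and endothelium, had scaled signals of at most 0.0431, 0.0234 and 0.00963, whereas other markers of these lists were brighter, with 11.7 to 17.4 for Itgam, 1.51 to 2.33 for Csf1r, 4.44 to 16.6 for Krt18 and 2.20 to 4.09 for Kdr. With doxorubicin Krt18 was 1.88-fold higher in WT and 3.75-fold higher in p53-/- MEFs, and Krt14 was 2.91-fold and 2.07-fold higher. Among 8 reference genes, the doxorubicin log2 ratio ranged from -0.09 to 1.13 in WT and from -0.42 to 0.40 in p53-/- MEFs, and Hprt alone passed 2-fold.

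Ccna2, Ccnb1, Ccnb2 and Ccne1 were lower with doxorubicin on the WT arrays and not on the p53-/- arrays. In WT MEFs they fell by 4.78-fold, 5.02-fold, 10.9-fold and 6.82-fold, whereas in p53-/- MEFs the brightest probe of each differed by under 1.5-fold. Ccnd1 was higher with the drug in both genotypes, by 2.03-fold in WT and 1.89-fold in p53-/- MEFs, and Ccnd2 was lower in both, by 1.59-fold and 2.36-fold. Ccnd3 and Ccnf stayed within 2-fold in both genotypes. Of the 9 genes, 8 had a brightest probe well above background on all 4 arrays and could be compared, and the exception was Ccne2. RNA was taken from whole cultures, so fewer cells in a given phase of the cycle and less RNA per cell cannot be told apart.

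A change of at least 2-fold, which "rose" and "fell" stand for throughout, was counted in each direction and set beside the same share over all genes measured. With doxorubicin in WT MEFs, 1 of 8 cyclins was higher and 4 were lower, where 11.0% and 10.4% of 17513 genes were. With doxorubicin in p53-/- MEFs, 0 were higher and 1 was lower, where 9.24% and 6.89% of 16950 genes were. The drug comparisons of the genotypes share no array. Between untreated genotypes, 2 cyclins were higher in p53-/- MEFs (Ccna2 and Ccnb1) and 0 lower, where 2.15% and 2.61% of 17286 genes were. Between doxorubicin-treated genotypes, 4 were higher in p53-/- MEFs and 1 was lower (Ccnd2), where 11.9% and 10.3% of 17888 genes were. The drug's log2 ratio in WT MEFs, less its log2 ratio without p53, was at least 1 above 0 for 0 cyclins and at least 1 below 0 for 4, where 8.37% and 9.86% of 16513 genes were. The 4 of 8 lower in WT MEFs stand beside a background of 10.4%, and single cyclins, such as Ccnd1 in WT or Ccnd2 in p53-/- MEFs, beside 11.0% and 6.89%, near which 1 of 8 lies. Under median scaling, in which each array is divided by its median signal in place of the 75th percentile, 0 cyclins were higher and 5 lower in WT MEFs, and 2 higher and 1 lower between untreated genotypes. After quantile normalization 0 were higher and 4 lower in WT MEFs. Comparisons between genotypes reuse the arrays of the comparisons between treatments, so they are the same 4 values read another way.

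**Figure D1:**
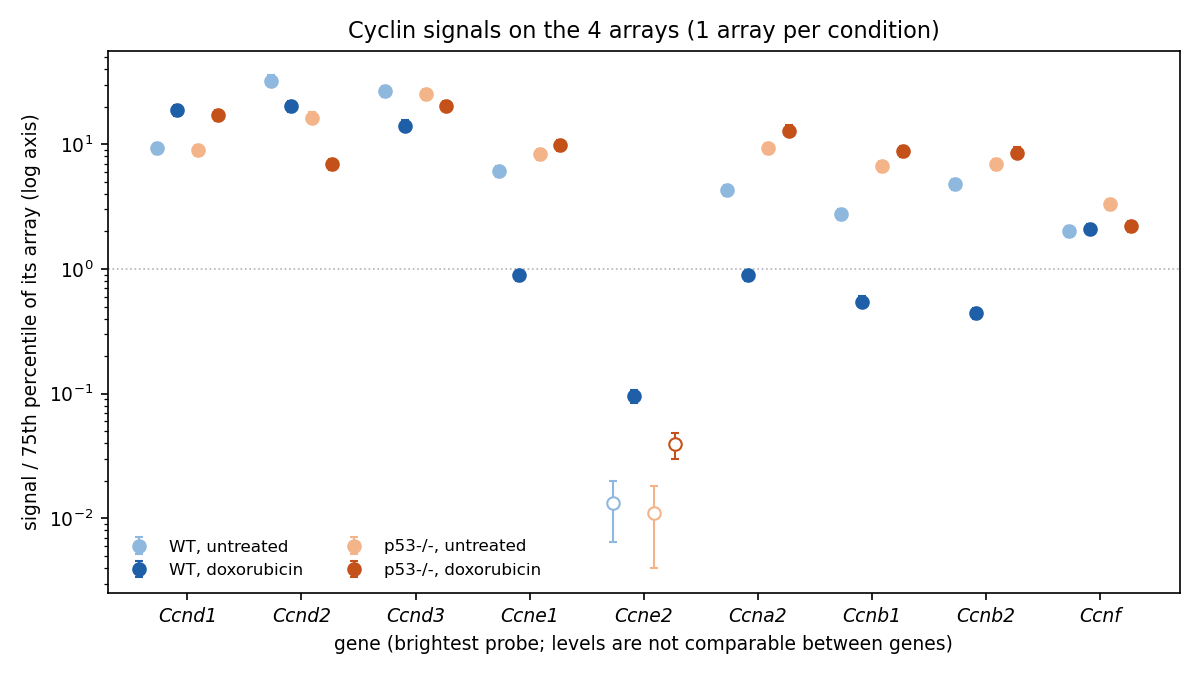
Scaled signal (processed signal over the 75th percentile of its array, log axis) of the brightest probe of each of the 9 cyclins, on 1 array per condition. Bars are the error that Feature Extraction gives for the spot and open circles are spots not well above background. Doxorubicin-treated WT MEFs are the lowest condition for Ccne1 (0.887), Ccna2 (0.896), Ccnb1 (0.547) and Ccnb2 (0.442).

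The sequences upstream of these genes are shown because the repressing complexes named above are known to bind a short element, the cell cycle genes homology region (CHR), near the start of mitotic genes, often together with CCAAT boxes. RefSeq (GRCm38.p6) gave promoter windows for 5 of the 9 cyclins, running from 250 bases before to 50 bases after the start of transcription. Ccna2, Ccnd1, Ccnd2 and Ccne2 had no entry. In the lines below, the 170 bases from -150 to 20 are written 5′ to 3′ on the strand of the gene, and the capitals mark the CHR letters TTTGAA or TTTAAA and the CCAAT letters on either strand. The windows are chr13:100786467-100786636 on the minus strand for Ccnb1, chr9:70421535-70421704 on the minus strand for Ccnb2, chr7:38107471-38107640 on the minus strand for Ccne1 and chr17:24251390-24251559 on the minus strand for Ccnf.
Ccnb1: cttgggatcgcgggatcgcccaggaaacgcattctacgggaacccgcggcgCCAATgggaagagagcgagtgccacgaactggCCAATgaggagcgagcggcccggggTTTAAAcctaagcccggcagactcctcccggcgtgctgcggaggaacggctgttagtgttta
Ccnb2: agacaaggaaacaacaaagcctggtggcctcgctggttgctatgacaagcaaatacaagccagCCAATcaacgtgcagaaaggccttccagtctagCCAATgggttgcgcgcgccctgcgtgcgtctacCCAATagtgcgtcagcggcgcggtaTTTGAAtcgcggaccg
Ccne1: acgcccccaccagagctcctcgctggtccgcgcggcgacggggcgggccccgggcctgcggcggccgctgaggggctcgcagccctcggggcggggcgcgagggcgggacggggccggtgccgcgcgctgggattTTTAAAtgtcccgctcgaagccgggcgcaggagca
Ccnf: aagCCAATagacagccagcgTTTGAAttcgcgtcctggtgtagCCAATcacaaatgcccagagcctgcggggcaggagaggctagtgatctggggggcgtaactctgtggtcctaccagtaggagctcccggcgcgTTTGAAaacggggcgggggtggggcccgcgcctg

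Ccnb1 held 2 CCAAT boxes, starting at -99 and -67, and a CHR starting at -42. Ccnb2 held 3 CCAAT boxes, at -87, -54 and -21, with a CHR at 5 and another at -167, beyond the stretch printed. In both genes the neighboring CCAAT boxes started 32 or 33 bases apart. Ccnf, which did not fall in WT MEFs, held the same kinds of letters, with CCAAT boxes at -147 and -107, 40 bases apart, and CHRs at -130 and -14. Ccne1 held a CHR at -15 and no CCAAT box. Of the 2 windows listed for Ccnd3, at chr17:47504901-47505070 and chr17:47593317-47593486, both on the plus strand, the first held neither and the second held a CCAAT box at -108. None of the 6 windows held the E2F site letters TTTCGCGC, TTTGGCGC or TTTCCCGC, and no matches overlapped. Such letters are common: 27.6% of all 32851 promoters in the table held a CHR, 37.4% a CCAAT box, 10.7% both and 1.84% an E2F site. The matches describe the sequences only, no binding was measured, and a link between the letters and the drug's ratios was not tested.

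Among the D-type cyclins, Ccnd1 was higher with the drug in both genotypes. Its probe (chr7:152116202-152116261, mm9, minus strand) gave scaled signals of 9.26 in untreated WT, 18.8 in doxorubicin-treated WT, 9.01 in untreated p53-/- and 17.1 in doxorubicin-treated p53-/- MEFs. Both treated arrays were high and both untreated arrays low, and within each pair the genotypes differed by less than the error of the spots, which Feature Extraction puts at about 10.0% of the signal. The log2 ratio of doxorubicin over untreated was 1.02 in WT and 0.92 in p53-/- MEFs, and the first lies just past 2-fold. It came to 0.75 and 0.62, below 2-fold, under median scaling, and also fell short of 2-fold in WT MEFs after quantile normalization. The difference between genotypes, 0.10, was smaller than the SD of such a difference (0.12) derived from repeat spots within an array.

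Ccnd2, which partners the same kinases, was the one cyclin whose signal was lower both with the drug and without p53. It gave scaled signals of 32.4 in untreated WT, 20.3 in doxorubicin-treated WT, 16.4 in untreated p53-/- and 6.95 in doxorubicin-treated p53-/- MEFs (chr6:127098696-127098755, minus strand). Each step down this order was larger than the error of the spots. The log2 ratio of doxorubicin over untreated was -0.67 in WT and -1.24 in p53-/- MEFs. The ratio of p53-/- over WT was -0.99 without the drug, just short of 2-fold (-1.04 under median scaling), and -1.55 with it. The difference of the drug's ratios between genotypes was 0.56, opposite in sign to that of Ccna2, Ccnb1, Ccnb2 and Ccne1.

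Ccnd3 is the third partner of Cdk4 and Cdk6. By its brighter probe it spanned 0.91 on the log2 scale over the 4 arrays, less than Ccnd1 (1.06) and Ccnd2 (2.22). By its other probe it spanned 1.14, more than Ccnd1. The brighter of its 2 probes (chr17:47736579-47736638, plus strand) gave 26.6 in untreated WT, 14.1 in doxorubicin-treated WT, 25.1 in untreated p53-/- and 20.4 in doxorubicin-treated p53-/- MEFs. Doxorubicin-treated WT MEFs were the lowest condition, and the untreated genotypes did not differ beyond the error of the spots. The log2 ratio with the drug was -0.91 in WT and -0.30 in p53-/- MEFs. Under median scaling the first became -1.19, past 2-fold. The other probe (chr17:47736267-47736326) gave -0.75 and -0.35 for the same ratios. The probes disagreed on untreated p53-/- over untreated WT, with a log2 ratio of -0.08 for the brighter and 0.39 for the other.

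Of the E-type cyclins, Ccne1, the activator of Cdk2 at the entry to S phase, lost most of its signal with doxorubicin in WT MEFs. Its brighter probe gave 6.05 in untreated WT, 0.887 in doxorubicin-treated WT, 8.35 in untreated p53-/- and 9.91 in doxorubicin-treated p53-/- MEFs. The treated WT array stood below the other 3, and all neighbors in the order differed by more than the error of the spots. The log2 ratio with the drug was -2.77 in WT MEFs, a ratio lower than that of all but 132 of 17513 genes, and 0.25 in p53-/- MEFs. The second turned to -0.05 under median scaling. The file places 24 bases of this probe at chr7:38882937-38882960 on the minus strand. The dimmer probe, at chr7:38885574-38885633, had signals of 249.9, 47.7, 291 and 440 in the same order and was not well above background in doxorubicin-treated WT MEFs. There its level was at least 4.60-fold lower than in untreated WT MEFs, taking as floor the higher of its own signal and the dimmest signal that was well above background, and at least 2.83-fold lower with the brightest negative control as floor.

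Ccne2, the second E-type cyclin, was near background. Its probe (chr4:11131423-11131482, plus strand) had signals of 27.5 in untreated WT, 174 in doxorubicin-treated WT, 20.8 in untreated p53-/- and 94.8 in doxorubicin-treated p53-/- MEFs, and only the second was well above background. The brightest negative controls of the same arrays had signals of 108, 77.5, 250.1 and 120. With the higher of its own signal and the dimmest signal well above background as floor, the level in doxorubicin-treated WT MEFs was at least 3.51-fold that of untreated WT MEFs and at least 2.45-fold that of doxorubicin-treated p53-/- MEFs. With the brightest negative control as floor these bounds were 1.84-fold and 1.94-fold. No ratio could be given within p53-/- MEFs. Because only the treated WT array had Ccne2 well above background, such bounds can point only upward for that array. Its direction was therefore not set against that of Ccne1.

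Ccna2, the cyclin of S phase and G2, ranked the 4 conditions in the same order as Ccne1. Its single probe (chr3:36463978-36464037, minus strand) gave 4.28 in untreated WT, 0.896 in doxorubicin-treated WT, 9.36 in untreated p53-/- and 12.9 in doxorubicin-treated p53-/- MEFs. All neighbors in this order differed by more than the error of the spots. The log2 ratio with doxorubicin was -2.26 in WT and 0.46 in p53-/- MEFs, or 0.16 in the latter under median scaling. The level without p53 was 2.19-fold higher among untreated MEFs and 14.4-fold higher among treated ones.

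Ccnb1 and Ccnb2 encode the cyclins that activate Cdk1 for mitosis. The brightest of 3 Ccnb1 probes (chr13:101548722-101548781, minus strand) gave 2.75 in untreated WT, 0.547 in doxorubicin-treated WT, 6.65 in untreated p53-/- and 8.86 in doxorubicin-treated p53-/- MEFs. Its log2 ratio with the drug was -2.33 in WT and 0.41 in p53-/- MEFs. Both other probes, at chr13:101551224-101551283 and chr13:101553449-101553508, also had their lowest level in doxorubicin-treated WT MEFs. They gave smaller falls there, with log2 ratios of -1.86 and -1.22, and both gave 0.63 in p53-/- MEFs. Among untreated MEFs, the 3 probes put Ccnb1 at 2.42-fold, 2.40-fold and 2.33-fold higher without p53. Among treated MEFs they put it at 16.2-fold, 13.5-fold and 8.43-fold higher.

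Ccnb2 had the deepest fall among the 8 measured cyclins. Its probe (chr9:70255671-70255730, minus strand) gave 4.82 in untreated WT, 0.442 in doxorubicin-treated WT, 6.95 in untreated p53-/- and 8.57 in doxorubicin-treated p53-/- MEFs. The log2 ratio with doxorubicin was -3.45 in WT MEFs, with only 50 of 17513 genes lower, and 0.30 in p53-/- MEFs. The latter came to 0.01 under median scaling. Untreated p53-/- MEFs had 1.44-fold the level of untreated WT MEFs, and with the drug the levels were 19.4-fold apart. The difference of the drug's log2 ratios between genotypes was -3.75, past that of Ccne1 (-3.02), Ccnb1 (-2.74) and Ccna2 (-2.72).

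Ccnf encodes cyclin F, which binds no CDK and instead brings proteins such as Rrm2 to the SCF ubiquitin ligase in G2. Its probe (chr17:24360204-24360263, minus strand) gave 2.01 in untreated WT, 2.10 in doxorubicin-treated WT, 3.32 in untreated p53-/- and 2.20 in doxorubicin-treated p53-/- MEFs. Untreated p53-/- MEFs were high, and the other 3 arrays lay within the error of the spots. The log2 ratio with doxorubicin was 0.06 in WT MEFs and -0.59 in p53-/- MEFs. The first was under the SD of a ratio (0.08) derived from repeat spots within an array, and was -0.21 under median scaling. Its window holds CHR and CCAAT letters, as do those of Ccnb1 and Ccnb2, whose log2 ratios in WT MEFs were -2.33 and -3.45. A link between such letters and the drug's ratios was not tested.

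**Figure D2:**
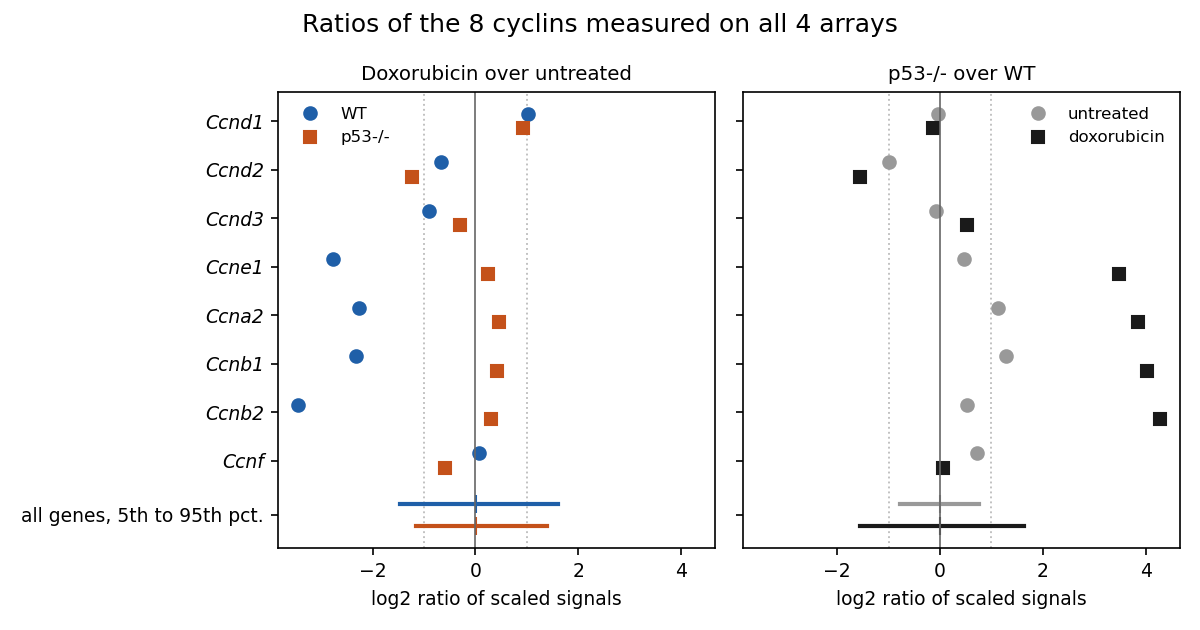
Log2 ratios of scaled signals for the 8 cyclins measured on all 4 arrays, as doxorubicin over untreated (left, circles WT and squares p53-/-) and p53-/- over WT (right, circles untreated and squares doxorubicin). Dotted lines mark 2-fold and the bottom bars run from the 5th to the 95th percentile of all genes, -1.46 to 1.60 for the drug in WT MEFs. Ccne1, Ccna2, Ccnb1 and Ccnb2 lie outside that bar in WT MEFs at -2.77, -2.26, -2.33 and -3.45.

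**Figure D3:**
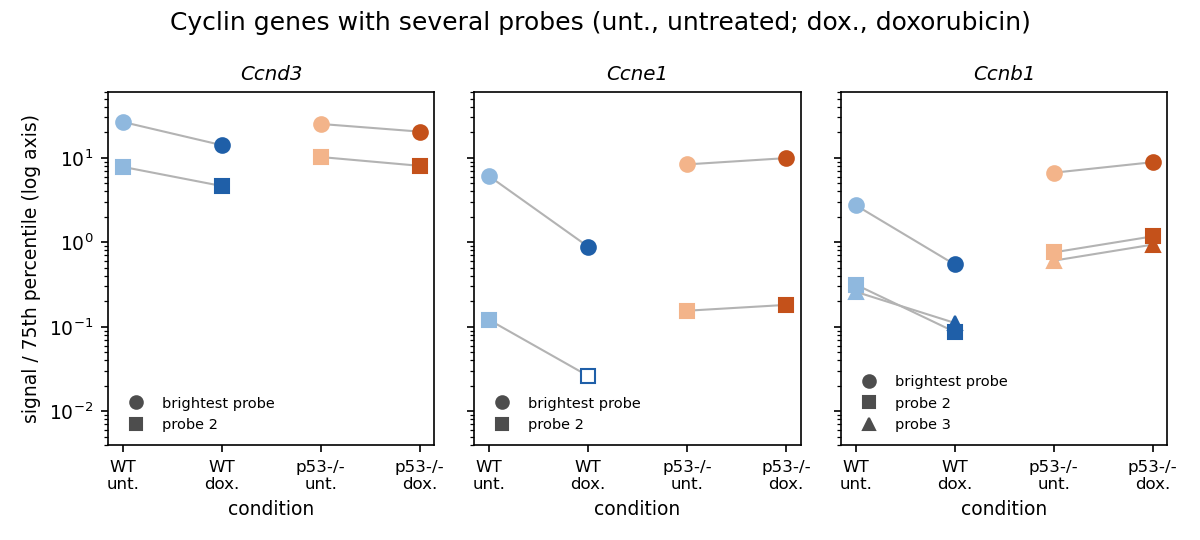
Scaled signal (log axis) of every probe of Ccnd3, Ccne1 and Ccnb1 in the 4 conditions, with lines joining untreated and treated arrays of a genotype and an open symbol for a spot not well above background. All probes of the 3 genes are lowest in doxorubicin-treated WT MEFs.

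The likeness of a pair of genes was taken as the Euclidean distance between their log2 levels over the 4 arrays, each gene centered on its own mean. Ccna2 and Ccnb1 were the closest cyclins, 0.17 apart, and Ccna2, Ccnb1, Ccnb2 and Ccne1 lay within 0.85 of each other. Their distances to the D-type cyclins and Ccnf were 2.22 to 4.30. Among all 16512 other genes measured on the 4 arrays, the nearest to Ccna2 were Shmt1 (0.08), which makes one-carbon units for thymidylate, Ccnb1 (0.17) and Foxm1 (0.18), a transcription factor of G2 genes. Nearest to Ccnb1 were Cdca8 (0.06), a subunit of the chromosomal passenger complex, Ccna2 (0.17) and Hmgb2 (0.17). Nearest to Ccnb2 were Atad2 (0.14), its kinase partner Cdk1 (0.20) and the replication licensing factor Cdt1 (0.24). Nearest to Ccne1 were Pole2 (0.14), a subunit of DNA polymerase epsilon, the kinetochore gene Dsn1 (0.32) and E2f8 (0.34).

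The patterns differed in how common they were. Within a distance of 0.25 there were 13 genes for Ccna2, 10 for Ccnb1, 4 for Ccnb2, 1 for Ccne1 and 6 for Ccnd2. There were 117 for Ccnd1, 257 for Ccnd3 and 117 for Ccnf, whose levels spanned a smaller range, 0.72 to 1.06 on the log2 scale. Nearest to Ccnd2 were Ccny (0.09), a cyclin of the plasma membrane, Plcb1 (0.14) and the lysosomal enzyme Naglu (0.16). Ccnd1 was nearest to Gm3932 (0.06), Usp27x (0.06) and BC005624 (0.08), Ccnd3 to Rabggtb (0.06), Adipor2 (0.06) and Zfp30 (0.07), and Ccnf to Tyw3 (0.03), Mettl21c (0.05) and Eif4ebp3 (0.06). With 4 points per gene such distances describe these arrays only.

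The kinase partners of the cyclins were listed together with Cks1b and Cks2, which are not kinases. All 6 genes were measured in WT MEFs, where 4 fell at least 2-fold with doxorubicin (Cdk1, Cdk2, Cks1b and Cks2) and 0 rose. Over all genes, 10.4% were lower and 11.0% higher. The median log2 ratio of the list was -1.44 against 0.01 over all genes. Cdk1, the mitotic kinase, had scaled signals of 1.47 in untreated WT, 0.157 in doxorubicin-treated WT, 2.49 in untreated p53-/- and 3.09 in doxorubicin-treated p53-/- MEFs. It was lowest where Ccnb1 and Ccnb2 were lowest. Its log2 ratio with the drug was -3.22 in WT and 0.31 in p53-/- MEFs, beside -1.21 and 0.17 for Cdk2. Cks1b and Cks2, small subunits that help CDKs bind their substrates, gave -1.67 and -1.77 in WT MEFs, and 0.50 and 0.75 in p53-/- MEFs. Cdk4, the partner of the D-type cyclins, gave -0.70 and -0.07, and Cdk6 gave -0.17 in WT MEFs and was not measured in doxorubicin-treated p53-/- MEFs. In p53-/- MEFs 5 of the listed genes were measured and none passed 2-fold, where 6.89% of all genes were lower and 9.24% higher. Their median was 0.31 (0.01 under median scaling).

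Enzymes that add or remove phosphate switch cyclin-bound kinases on or off. Of 7 measured, 4 fell with doxorubicin in WT MEFs and 0 rose, beside the same 10.4% and 11.0% of all genes. The list's median was -1.88, or -1.36 with the normexp background correction. In p53-/- MEFs none passed 2-fold (median 0.10, or -0.20 under median scaling), where 6.89% of all genes were lower and 9.24% higher. The 4 held activators and inhibitors alike. The phosphatases Cdc25b and Cdc25c, which activate CDKs, gave log2 ratios of -2.77 and -2.00 in WT MEFs. The inhibitory kinases Wee1 and Pkmyt1 gave -1.88 and -2.92. Cdc25a gave -0.25 in WT and 0.59 in p53-/- MEFs. Cdk7 and Mnat1, of the CDK-activating kinase with cyclin H, gave -0.07 and -0.19 in WT MEFs.

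Among 7 CDK inhibitor proteins, Cdkn1a, which encodes p21, was the one gene at least 2-fold higher with the drug, and was so in both genotypes. Over all genes, 11.0% were higher in WT and 9.24% in p53-/- MEFs, near which 1 of 7 lies. Its scaled signals were 13.8 in untreated WT, 58.3 in doxorubicin-treated WT, 0.519 in untreated p53-/- and 2.44 in doxorubicin-treated p53-/- MEFs. Both p53-/- arrays were below both WT arrays, and the treated p53-/- array stayed below the untreated WT array. The log2 ratio with the drug was 2.08 in WT and 2.23 in p53-/- MEFs, while p53-/- over WT was -4.73 without the drug and -4.58 with it. These values are from the brighter of 2 probes. The other gave 1.16 for the drug in WT MEFs and -5.67 for p53-/- over WT with the drug. It was not measured in untreated p53-/- MEFs, so it gave no ratio for the drug there. Of the other 6, Cdkn1b (-1.58), Cdkn2c (-1.19) and Cdkn2d (-1.75) fell in WT MEFs, beside 10.4% of all genes, though Cdkn2c fell short of 2-fold with the normexp background correction. Cdkn1c (-0.91), Cdkn2a (0.02) and Cdkn2b (0.27, or 0.60 by its other probe) stayed within 2-fold, but Cdkn1c was past 2-fold lower under median scaling. The list's median was -0.91 in WT and 0.01 in p53-/- MEFs.

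Genes whose products destroy cyclins, or hold their destruction back, were examined as well. Of 9 genes measured in WT MEFs, 5 fell with doxorubicin (6 under median scaling), where 10.4% of all genes were lower, and the median was -1.18. The 1 gene that rose is near the 11.0% of all genes that were higher. Fbxo5, which encodes the inhibitor of the anaphase-promoting complex that spares cyclins A and B, gave the lowest log2 ratio of the list, -3.94, followed by Ube2c, the ubiquitin-conjugating enzyme of that complex, at -3.40. Cdc20, its mitotic activator, gave -1.19 and Fzr1, its G1 activator, -0.53. Skp2 gave -1.73 and Fbxo31, a receptor for cyclin D1, -1.18. The gene that rose was Fbxw7, whose product is the receptor that marks cyclin E for destruction. Its scaled signals were 1.41 in untreated WT, 4.12 in doxorubicin-treated WT, 1.02 in untreated p53-/- and 0.675 in doxorubicin-treated p53-/- MEFs, so the treated WT array stood above the other 3. Its log2 ratio was 1.55 in WT and -0.59 in p53-/- MEFs. Cyclin E protein was not measured on these arrays, and a link between Fbxw7 and Ccne1 was not tested. Fbxo31 (-1.33) alone passed 2-fold in p53-/- MEFs, where 6.89% of all genes were lower and 9.24% higher. The list's median there was 0.28. Under median scaling that median was -0.02 and Ube2s was past 2-fold lower as well, in both genotypes.

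**Figure D4:**
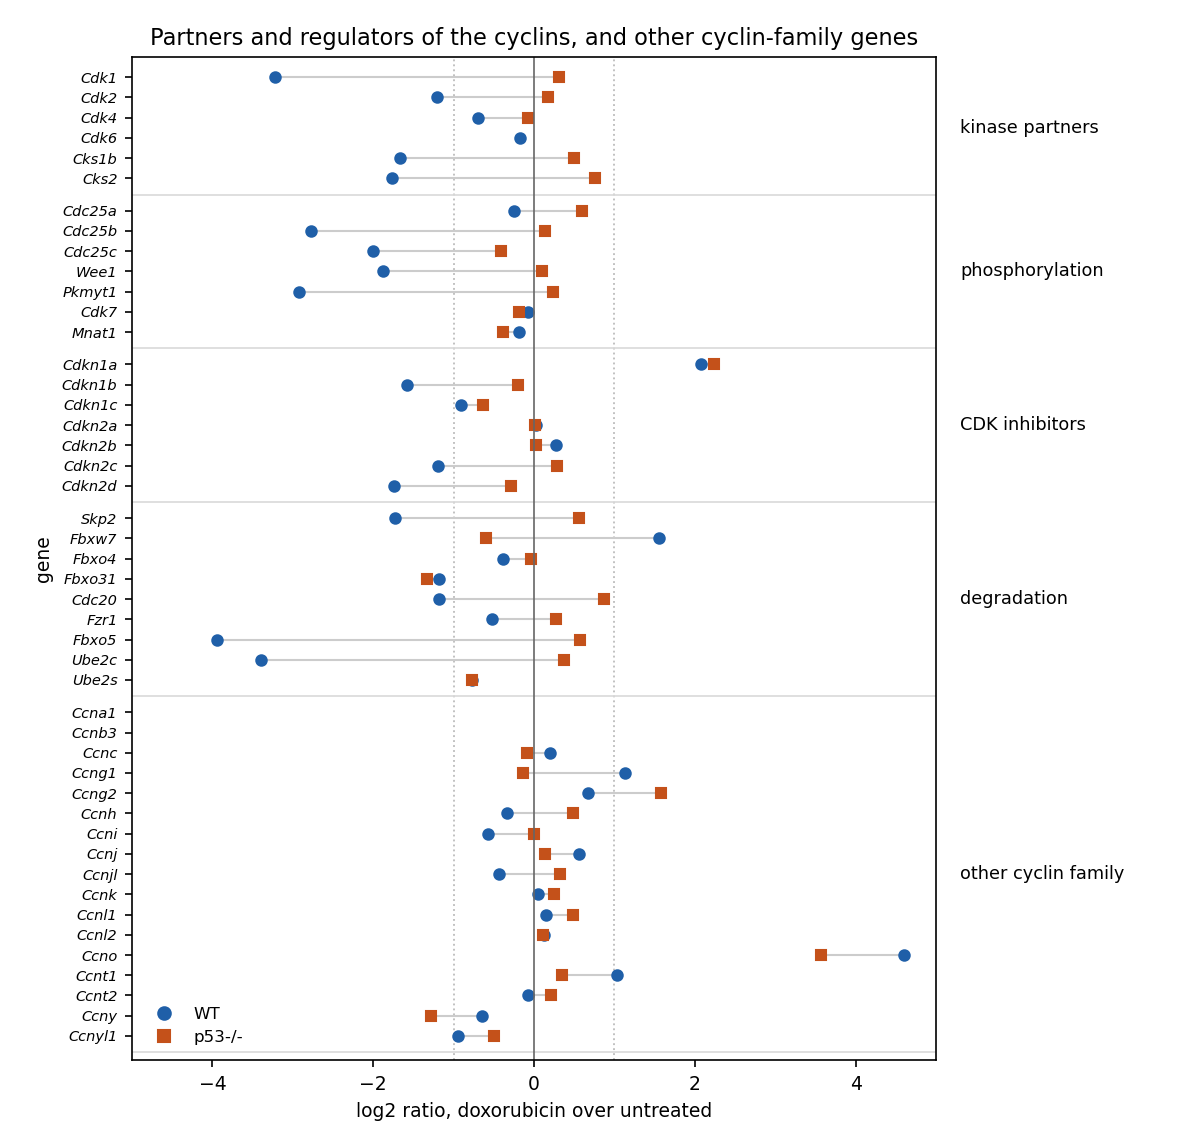
Log2 ratio of doxorubicin over untreated for partners and regulators of the cyclins and for other genes of the cyclin family, in WT (circles) and p53-/- (squares) MEFs, by list. Dotted lines mark 2-fold and a gene without a symbol was not measured. Cdk1 (-3.22 and 0.31), Fbxo5 (-3.94 and 0.58) and Ube2c (-3.40 and 0.38) have long gaps between genotypes. By its brighter probe Cdkn1a (2.08 and 2.23) moved alike, and its other probe gave no ratio in p53-/- MEFs.

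The remaining 17 genes of the cyclin family mostly act in transcription or have other roles. Of 15 measured in WT MEFs, 3 rose with doxorubicin and 0 fell, beside 11.0% and 10.4% of all genes, and the median log2 ratio was 0.12. Under median scaling 1 was higher (Ccno), 1 was lower (Ccnyl1) and the median was -0.15. Ccno, which serves the making of multiciliated cells, rose in both genotypes, with scaled signals of 0.0780 in untreated WT, 1.90 in doxorubicin-treated WT, 0.111 in untreated p53-/- and 1.31 in doxorubicin-treated p53-/- MEFs. Both treated arrays were above both untreated arrays, and the log2 ratio was 4.61 for WT and 3.57 for p53-/- MEFs. The untreated levels were dim, so the size of these ratios is uncertain. The untreated WT signal was 162, where the brightest negative control had 108. The untreated p53-/- signal, 209, was below the brightest negative control, 250. Ccng1, a known target of p53, had scaled signals of 11.5 in untreated WT, 25.3 in doxorubicin-treated WT, 0.929 in untreated p53-/- and 0.848 in doxorubicin-treated p53-/- MEFs. It was lower in p53-/- than in WT MEFs by 3.63 on the log2 scale without the drug and by 4.90 with it. Ccnt1, the partner of Cdk9, gave 1.03 in WT MEFs, short of 2-fold under median scaling and with normexp, and 0.35 in p53-/- MEFs. In p53-/- MEFs, Ccng2 (1.57) and Ccno rose and Ccny (-1.28) fell, where 9.24% of all genes were higher and 6.89% lower. The untreated p53-/- signal of Ccng2, 256, was also close to the brightest negative control. Ccna1 and Ccnb3, the germ line relatives of Ccna2 and Ccnb1, were not measured on any array.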

How the data were processed

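RNA from WT and p53-/- MEFs, without and with doxorubicin, was labeled by the authors with Cy3 (200 ng of total RNA per sample) and hybridized to Agilent mouse arrays. The 4 arrays, 1 for each condition, shared 1 slide. The deposited intensity of a spot, per the file headers from Agilent Feature Extraction 10.7.3.1 with a mm9 grid, was background-subtracted and detrended, and was not normalized between arrays. The deposited table of intensities for all arrays equaled these values at all 44397 spots per array (relative tolerance 1e-04). Mean and local background intensities, deposited by the authors, served the normexp alternative. The deposited flags, coded 0 or 1 (per the file headers), mark spots well above background, saturated or outlying. The authors' fold changes from the Subio Platform were not used.

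Outlier spots (145 to 168 per array) were left out, the log2 intensities of a probe's other spots were averaged, and each array was set relative to its 75th percentile (signals of 1819 to 2421). The brightest probe on average stood for a gene, and a ratio was measured where both arrays had it well above background. Where 1 array was not, the brighter level was set against the higher of the dim signal and the lowest signal well above background. RefSeq (GRCm38.p6) named 26049 probes by accession, among them those of all 9 cyclins, 3200 by symbol and 930 by synonym, and 9250 kept the name in the file. It was used for names and promoters only. Exons and untranslated regions are not given here, since no mm9 annotation was used.

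No p-value was calculated, and the number of arrays limits the precision. Repeat spots within an array (253 probes spread over each array) gave an SD of 0.06 for a log2 signal. From it, SDs of 0.08 for the ratio of a pair of arrays and 0.12 for the difference of such ratios were derived. They hold no variation between arrays or cultures. The cyclin probes were each spotted once, with a Feature Extraction error of 10.0% to 12.9% of the signal where well above background. Neighbors in an order of levels were compared with that error. Named genes were the cyclins, the members of the lists of partners, regulators, other cyclins and reference genes, and the 3 genes nearest to each cyclin. Trp53 and the cell type markers were added as checks. The cyclins and lists were chosen with earlier results of these data known. Columns of per-sample values left unused numbered 0.

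As alternatives, arrays were scaled to their medians or quantile normalized, background was corrected by normexp in limma with an offset of 50, dim probes were kept or held to the brightest of 153 negative controls, all probes of a gene were averaged, the deposited table took the place of the scanner values, and 1.5-fold and 3-fold served as thresholds. The steps were tested on simulated data. The software was R 4.3.3 (limma 3.58.1) and Python 3.11.15 (numpy 2.4.6, pandas 2.3.3, matplotlib 3.10.9).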

Additional observations from a re-analysis of the deposited data

Results flagged for a closer look

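The doxorubicin log2 ratio had opposite signs in WT and p53-/- MEFs for 25 of the 51 cyclins, partners and regulators measured in both, 5 of them among 8 cyclins. Over all 16513 genes measured in both, the share of opposite signs was 34.5%. With 1 array per condition the difference between genotypes was not tested. The difference of ratios (WT minus p53-/-) was -2.72 for Ccna2, -2.74 for Ccnb1, -3.75 for Ccnb2, -3.02 for Ccne1 and 0.66 for Ccnf, and the median over the measured cyclins was -1.66.

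Among kinase partners it was -3.53 for Cdk1, -1.38 for Cdk2, -2.16 for Cks1b and -2.52 for Cks2. Among enzymes that act on the kinases by phosphorylation it was -0.85 for Cdc25a, -2.91 for Cdc25b, -1.98 for Wee1 and -3.16 for Pkmyt1. Of the CDK inhibitors it was -1.48 for Cdkn2c. Of the genes of cyclin degradation it was -2.29 for Skp2, 2.14 for Fbxw7, -2.05 for Cdc20, -0.81 for Fzr1, -4.52 for Fbxo5 and -3.78 for Ube2c. In the rest of the cyclin family it was 0.29 for Ccnc, 1.27 for Ccng1, -0.82 for Ccnh, -0.76 for Ccnjl and -0.30 for Ccnt2.

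Opposite signs held for 25 of these genes after quantile normalization and after normexp background correction, and for 15 with scaling to the array medians. The 10 that then had one sign in both genotypes were Ccne1, Ccnf, Cdk2, Cdc25b, Wee1, Pkmyt1, Cdkn2c, Fzr1, Ccnc and Ccnt2. For Ccnf and Ccnt2 the ratio in WT MEFs, as reported, was within the SD derived from repeat spots. Among the 15, Ccnb2 came to 0.0051 in p53-/- MEFs under median scaling, also within that SD. The count of 15 set no lower limit on the size of a ratio.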

How the results depend on the processing

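Scaling to the array medians shifted the median of all genes to -0.27 for the drug in WT MEFs and -0.30 in p53-/- MEFs. The median of the 8 cyclins then moved from -1.58 to -1.86 in WT MEFs and turned from 0.27 to -0.023 in p53-/- MEFs. With no filter on dim probes, which adds Ccne2, the medians became -0.91 for the drug in WT MEFs, 0.53 for doxorubicin-treated p53-/- over WT (2.01 as reported) and -0.61 for the difference between genotypes (-1.66 as reported). With the mean of a gene's probes these became -1.32, 1.90 and -1.44. The count of cyclins at least 2-fold apart with the drug in p53-/- MEFs, 1, became 2 with no filter, 3 at 1.5-fold and 0 at 3-fold. Between untreated genotypes the count of 2 became 4 at 1.5-fold and 0 at 3-fold. The counts of 5 in WT MEFs, 5 between treated genotypes and 4 for the difference stayed within 1.5 times under every alternative, though with the array medians Ccnd1 left the count in WT MEFs and Ccnd3 entered it.

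Single cyclins changed sign only near 0. Scaling to the array medians gave -0.051 for Ccne1 with the drug in p53-/- MEFs, -0.21 for Ccnf with the drug in WT MEFs and -0.0045 for Ccnf between treated genotypes. Quantile normalization gave 0.0023 for Ccnd1 and 0.0095 for Ccnd3 between untreated genotypes, and the mean of the probes gave 0.15 for Ccnd3 there. Of 40 values per setting, the array medians moved 14 more by over the SD of repeat spots, the mean of probes 8, normexp 5 and quantile normalization 4. The negative control filter, no filter and the deposited table moved 0, which was fixed in advance. A filter only decides whether a ratio is given, and the deposited table holds the same values. No paired analysis was possible because each condition had 1 array without a replicate number, and for the same reason no array could be left out. The slide as a block could not be fitted, since there was 1 slide. Signals near the negative controls, such as those of Ccne2, set the limit of detection.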

Other observations

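Other genes with several probes showed how far probes of one gene can part on these arrays. The brighter Ccnl1 probe gave a log2 ratio with doxorubicin of 0.14 in WT and 0.49 in p53-/- MEFs, whereas the dimmer gave 1.16 and 1.54. For Ccnyl1 the brightest probe gave -0.94 and -0.50, and the other 2 gave -0.46 and 0.48, and -0.42 and 0.35. For the drug in WT MEFs, the probes of Cdk4 gave -0.65, -0.70 and -0.60, those of Cks1b -1.67 and -1.74, and those of Ube2c -3.40 and -3.37.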
